A study of Ovis aries with 16 samples.

Results

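Small nucleolar RNAs (snoRNAs) whose reads were fewer in livers of sheep exposed to bisphenol A before birth are described here. They were selected on measured values. A snoRNA was taken when its mean over the 8 liver libraries was at least 5 and its mean in BPA livers was at most 0.5 times that in control livers. It was left out when its mean in muscle was at least 5 and its mean in BPA muscle was at least 2 times that in control muscle. The rule gave 65 of the 694 snoRNAs in the deposited table, or 65 of the 212 with a liver mean of at least 5. Of the 66 that met the liver part of the rule, LOC114118106 was left out by its muscle values. Because the liver difference chose the members, it is given below as a description without a test.

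The animals were female Suffolk sheep about 21 months old, and each library is liver (tip of the left lobe) or vastus lateralis, a thigh muscle, of a single animal. The mothers of the BPA group were injected under the skin every day from day 30 to day 90 of gestation with 0.5 mg per kg of bisphenol A, a plastics monomer with oestrogen-like activity, in corn oil. The mothers of the control group received corn oil alone. Both groups were fasted for 48 hours, had their oestrous cycles synchronised by 2 prostaglandin F2α injections 11 days apart and were sampled 24 hours after the second. There are 4 control livers (sheep 902, 908, 924 and 928), 4 BPA livers (sheep 910, 918, 977 and 984) and the muscle of the same 8 animals. Values are deposited normalised read counts, scaled separately in each tissue, and errors are SD with n = 4 animals.

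snoRNAs guide the chemical modification of ribosomal and spliceosomal RNA in the nucleolus and Cajal bodies. Box C/D snoRNAs direct methylation of the ribose, and the generally longer box H/ACA snoRNAs direct the conversion of uridine to pseudouridine. A few, such as U3, act in the cleavage of the ribosomal RNA precursor. In vertebrates most are made from introns of other genes, so that several snoRNAs can come from the same precursor transcript. The snoRNAs of this table carry locus identifiers without family names, and whether a given member is of the C/D or the H/ACA class is therefore not stated.

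Reads assigned to snoRNAs numbered 8000 to 10629 per control liver, 6054 to 40463 per BPA liver, 2825 to 3872 per control muscle and 9886 to 15915 per BPA muscle. Reads assigned to miRNAs, from the same libraries, numbered 94393 to 240815 in control livers and 578150 to 1383538 in BPA livers. A single snoRNA read was worth 0.833 to 1.09 units in control livers and 0.357 to 1.71 in BPA livers. The tissue labels were checked on miRNAs. The summed level of MIR148A and MIR194, both abundant in hepatocytes and the 2 of 4 hepatocyte markers in the miRNA table, was 45135 to 61597 in control livers, 40787 to 66110 in BPA livers and 1311 to 2028 in muscle. MIR133, a muscle miRNA, was 115 to 717 in livers of either group and 244661 to 373488 in muscle.

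The members were of moderate abundance. Their means in control livers ran from 7.03 to 667.6 with a median of 33.1, and 3 exceeded 100. The ratio of BPA to control liver means had a median of 0.223 over the 65 members, against 1.10 over all 212 snoRNAs and 2.02 over the 147 that are not members. It was under 0.1 for 4 members, between 0.1 and 0.2 for 23, between 0.2 and 0.3 for 21, between 0.3 and 0.4 for 9 and between 0.4 and 0.5 for 8. All 4 BPA livers lay below all 4 control livers for 43 members, and the groups overlapped for 22. Over the 212 snoRNAs, 46 had all BPA livers below all controls, a background of 21.7%, and the rule used the same contrast. Counts were small, since 26 members had fewer than 30 reads over the 4 BPA livers together. These are bulk tissues, in which fewer cells of a type and less RNA per cell cannot be told apart.

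**Figure D1:**
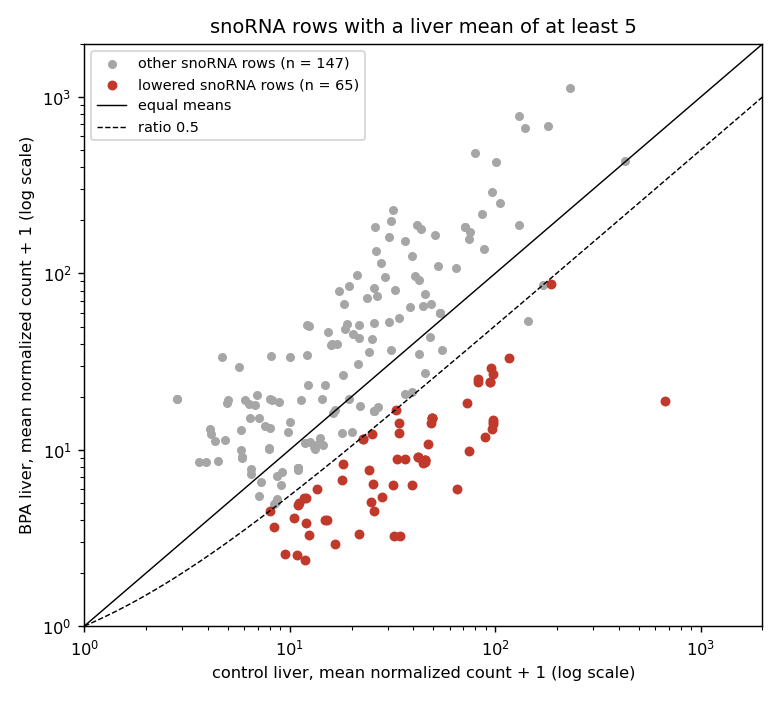
Mean normalised count in control livers (x axis, log scale) against BPA livers (y axis, log scale) for the 212 snoRNAs with a liver mean of at least 5, members and other rows in separate colours. The members lie below the line of a ratio of 0.5, and the grey point below that line is LOC114118106, which the muscle clause left out.

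The most abundant member was LOC114114248, a 134 nt snoRNA within the span of the long non-coding RNA LOC101110918. Its values were 440.3, 1095, 437 and 698 in control livers and 25.7, 6.48, 27.4 and 11.98 in BPA livers. The groups were far apart, and the lowest control liver was well above the highest BPA liver. The means were 668 ± 310 and 17.9 ± 10.3, 37.3-fold lower, from 2816 reads and 105 reads. In muscle it was read at 16.2, 16.97, 15.8 and 13.2 in controls and at 7.87, 14.8, 7.03 and 13.8 in BPA animals. The muscle groups overlapped. The lncRNA table holds LOC101110918 as a row of its own, and the same reads may be in both tables. That row was 1060 ± 617 in control livers and 15.3 ± 8.43 in BPA livers, and its means were 15.9 in control muscle and 16.8 in BPA muscle. Another snoRNA in the same span, LOC114114258, had low liver means of 2.45 in controls and 4.45 in BPA animals, a ratio of 1.81.

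A set of 7 members lay in TEX14, which encodes a protein of the bridges between germ cells. They are all of the snoRNAs with a liver mean of at least 5 that lie there, although the gene table labels LOC114117128 a pseudogene. They are 214 to 232 nt long. LOC114117130 was the most abundant of them, with 366, 70.0, 122 and 182 in control livers and 84.3, 66.7, 102 and 92.4 in BPA livers. The groups overlapped, and the control mean of 185 ± 129 rested on the liver of sheep 902, while the BPA mean was 86.4 ± 15.1. LOC114117131 was read at 170.5, 45.8, 69.7 and 101 in control livers and at 8.93, 16.7, 14.4 and 13.7 in BPA livers, without overlap. LOC114117127, LOC114117128 and LOC114117129 had nearly the same counts as LOC114117131, with ratios from 0.126 to 0.143 over the 4. For LOC114117128 the values were 172, 45.8, 67.5 and 101 in control livers and 8.93, 14.8, 14.4 and 17.1 in BPA livers. LOC114117125, which shares most of its counts with LOC114117126, was read at 157, 47.5, 78.4 and 104 in control livers and 21.4, 22.2, 24.5 and 36.0 in BPA livers. Sheep 902 had the highest control liver in each of these TEX14 snoRNAs that is given by library.

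Near-identical counts were common among the members. For each pair of rows the differences of their reads in each library were added up over the 16 libraries. Rows were linked when this sum came to at most 15% of the larger row's reads. Links were joined in chains to form groups, so rows of a group can differ by more than this limit. Of the 65 members, 33 fell into 11 such groups. The 65 members thus hold 43 separate profiles. Of all 212 snoRNAs 63 fell into 22 such groups, and of the 147 that are not members 30 fell into 11. The shared counts may be reads of the same molecules assigned to several copies of a gene, and the values of such rows are uncertain and are not independent of each other. The largest group holds 10 rows, of 105 nt where a length is known, and 3 of them lie in ATF7IP2, DCUN1D3 and NMT1. Its most abundant row, LOC114114278, had 28.3, 61.7, 42.5 and 61.3 in control livers and 7.85, 6.48, 11.5 and 30.8 in BPA livers, where sheep 984 overlapped the lowest control. Ratios within this group ran from 0.167 to 0.294.

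Members with the smallest ratios included 2 that lie in RCC1, the nucleotide exchange factor of the GTPase Ran. LOC114113367, 204 nt long, was read at 50.7, 28.3, 22.9 and 31.2 in control livers and at 2.86, 1.85, 4.33 and 0 in BPA livers. Its means were 33.3 ± 12.1 and 2.26 ± 1.82, from 136 and 13 reads. LOC114116533, which the gene table does not hold, followed it at 45.8, 27.5, 22.9 and 29.1 in control livers and 2.86, 1.85, 4.33 and 0 in BPA livers. The second snoRNA in RCC1, LOC114113368, also 204 nt long, had a ratio of 0.126. In all 3 the BPA livers were below every control liver.

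The other members at the low end were LOC114115466, LOC114117077 and LOC114108878. LOC114115466 was read at 69.2, 38.3, 63.2 and 87.2 in control livers and at 5.71, 8.33, 4.33 and 1.71 in BPA livers, a ratio of 0.0779. LOC114117077, 128 nt long and within UTP6, which encodes a factor of ribosomal RNA processing, was read at 21.4, 10.0, 21.8 and 30.1 in control livers and 3.57, 2.78, 2.89 and 0 in BPA livers. LOC114108878 lies in RPS3A, a gene of a small-subunit ribosomal protein, and had 53.6, 62.5, 70.8 and 107 in control livers against 8.57, 9.26, 5.77 and 11.98 in BPA livers. No BPA liver reached the lowest control in any of them.

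LOC114117365, an 81 nt snoRNA with no host gene in the table, was read at 108, 97.5, 75.2 and 181 in control livers and at 47.1, 34.3, 18.8 and 29.1 in BPA livers. Within 5 kb of it the gene table places 8 further snoRNAs with a liver mean of at least 5, none of them a member. Their ratios of BPA to control liver ran from 1.98 to 7.29. The highest of these was LOC114117376, with means of 24.9 ± 13.7 in control livers and 182 ± 48.1 in BPA livers.

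For 30 members another snoRNA with a liver mean of at least 5 lay in the same host gene or within 5 kb. It was not a member for 18 of these, and for 14 at least 1 such neighbour had a ratio above 1. Among the 29 such neighbours that were not members, 8 of them beside LOC114117365, 25 had a ratio above 1 (86.2%), with a range from 0.527 to 7.39. Over all snoRNAs that are not members the count was 109 of 147 (74.1%). Neither being a member nor falling under the liver mean of 5 is free of the liver values, so these counts are a description. Of 28 further neighbours with a liver mean under 5 and with reads in control livers, so that a ratio is defined, 11 had a ratio above 1 and 9 a ratio of at most 0.5. Examples of the latter are LOC114110211 in TAF1D, with means of 7.16 in control and 0.659 in BPA livers, and LOC114115926 in RPL4, with 6.66 and 1.16. The pairs that follow were chosen after their values were seen.

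HSPA8 encodes a constitutive heat-shock chaperone. Member LOC114118597 (84 nt) lies in its span and also in those of CLMP and LOC132657867, without strand to tell them apart, with 97.4, 77.5, 65.4 and 112 in control livers and 6.78, 10.2, 15.9 and 10.3 in BPA livers. Its neighbour in the same gene, LOC114118596, was 426 ± 68.5 in control livers and 430.2 ± 199 in BPA livers. RPS3A holds LOC114108879 beside the member LOC114108878, and their ratios were 3.95 and 0.121. EIF4A2, an RNA helicase of translation initiation, holds member LOC114111371 (177 nt) with a ratio of 0.139. LOC114111297 in the same gene, with a liver mean of only 0.901, had a ratio of 0.174. The 2 further snoRNAs there with a liver mean of at least 5, LOC114111253 and LOC114111381, had ratios of 3.62 and 4.8. The same order held in the ATP synthase gene ATP5F1B (LOC114114231 at 0.183, LOC114114232 at 5.21) and in RACK1, which encodes a scaffold on the ribosome (LOC114115069 at 0.499, LOC114115077 at 4.29).

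The BPA livers differed among themselves in snoRNAs. Over all snoRNA reads the chi-square per degree of freedom was 2.50 between sheep 910 and 918 and 3.08 between sheep 977 and 984, and it was 17.3 to 20.8 across these pairs. Control livers differed among themselves as well, at 4.64 to 14.6 between any pair of them. The numbers in the library codes, which the labels do not explain, were 95 and 96 for sheep 910 and 918 and 71 and 72 for sheep 977 and 984. Their part in the differences among BPA livers was not tested. LOC114111381 in EIF4A2 was read at 160.3 and 195 in sheep 910 and 918 and at 10.1 and 22.3 in sheep 977 and 984, against 5.85 to 37 in control livers. LOC114114232 was read at 249.9 and 210.2 in BPA sheep 910 and 918 and at 44.7 and 25.7 in sheep 977 and 984, against 6.82 to 51.2 in control livers. The ATP5F1B member itself was at 1.07, 3.70, 1.44 and 0 in the same BPA livers and at 8.77, 13.3, 3.27 and 8.61 in controls. The high mean of this neighbour thus came from 2 of the 4 BPA livers, whereas the member was low in all of them apart from an overlap of sheep 918 with the lowest control.

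In other hosts members and neighbours were closer. WDR43, a gene for a factor of ribosomal RNA processing, holds members LOC114114238 and LOC114114236, with ratios of 0.197 and 0.348, and LOC114114237, which at 0.527 lay just outside the rule. LOC114114239 shares the counts of LOC114114238, at 57.5, 32.5, 26.1 and 48.4 in control livers and 7.14, 4.63, 8.66 and 11.98 in BPA livers. LOC105616911 holds LOC114118124, LOC114118125 and LOC114118126, all members. LOC114118125 was read at 14.6, 10.8, 11.98 and 19.4 in control livers and at 3.21, 3.70, 0 and 5.14 in BPA livers.

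**Figure D2:**
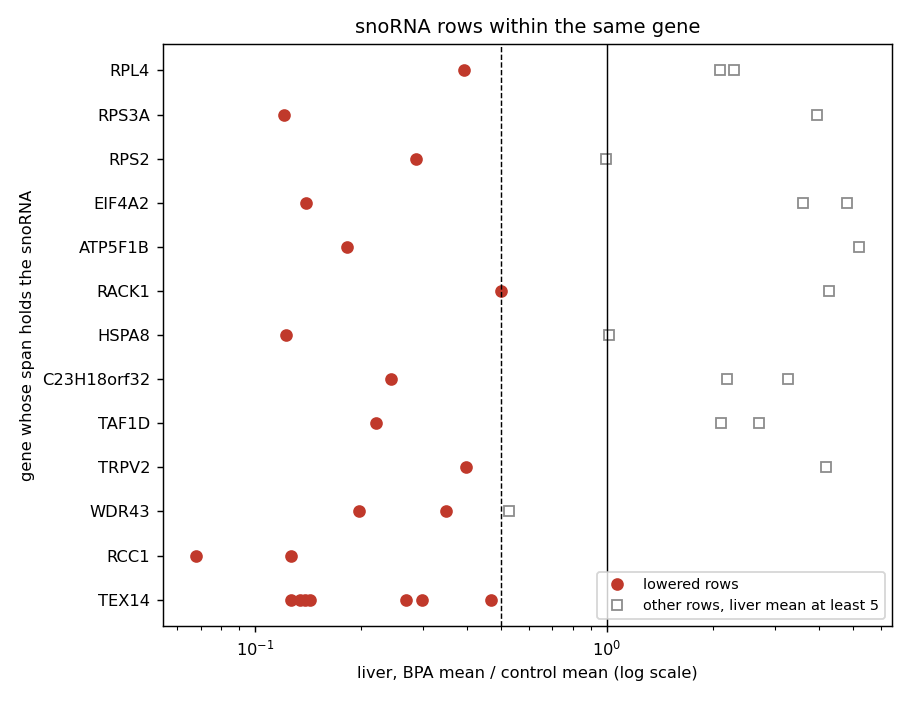
Ratio of BPA to control liver means (log scale) for snoRNAs that share a host gene, with members and other rows in separate colours. In EIF4A2, RPS3A and ATP5F1B a member stands below 0.5 with at least 1 snoRNA of the same gene above 1, while both RCC1 rows are members.

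Some shared-count pairs lay in hosts with other roles. LOC114109245 (127 nt) in EIF5, a translation initiation factor gene, was read at 65.3, 68.3, 120.9 and 72.1 in control livers and at 17.9, 8.33, 31.7 and 39.4 in BPA livers. LOC114110216 (131 nt) lies in TAF1D, which encodes a factor of RNA polymerase I initiation, and had 38.0, 12.5, 16.3 and 31.2 in control livers against 2.86, 2.78, 5.77 and 10.3 in BPA livers. LOC114116762 (130 nt), in TPT1, was less separated, at 15.6, 20.8, 19.6 and 31.2 against 6.78, 9.26, 17.3 and 8.56. LOC114117072, which shares counts with LOC114117070 in RPL23, had a control liver of 2.50 below 3 of the BPA livers.

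By the gene table, 45 of the 58 matched members (77.6%) lay in the span of a protein-coding gene, against 145 of 199 matched snoRNAs overall (72.9%). Ribosomal protein genes held 6 of the 65 members and 35 of the 212 snoRNAs. LOC105606646 holds members LOC114109206 and LOC114109211 together with several miRNAs, MIR379 and MIR410 among them. Their ratios were 0.354 and 0.494, their liver groups overlapped, and the lncRNA row of the same locus was 167 ± 34.2 in control and 211 ± 50.4 in BPA livers.

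Long snoRNAs were frequent among the members. The gene table gives a length for 58 members, with a median of 127 nt and a range from 66 to 248 nt. The median was 84 nt for 141 other snoRNAs and 91 nt for all 199. Members longer than 90 nt numbered 42 of 58 (72.4%), against 58 of 141 others (41.1%). At 200 nt or more there were 12 members and 1 other snoRNA, LOC114117660 in SNX5, whose ratio was 0.903. The 12 are the 7 in TEX14 (with LOC114117128, labelled a pseudogene), the 2 in RCC1, LOC114115071 in MATR3, LOC114114259 in SLC25A3 and LOC114109259 in SNX6. Length was not used by the rule, but rows with shared counts repeat a length, so the rows are not independent and no test is given. Whether reads cover whole snoRNAs or fragments of them is not recorded in the values used here.

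**Figure D3:**
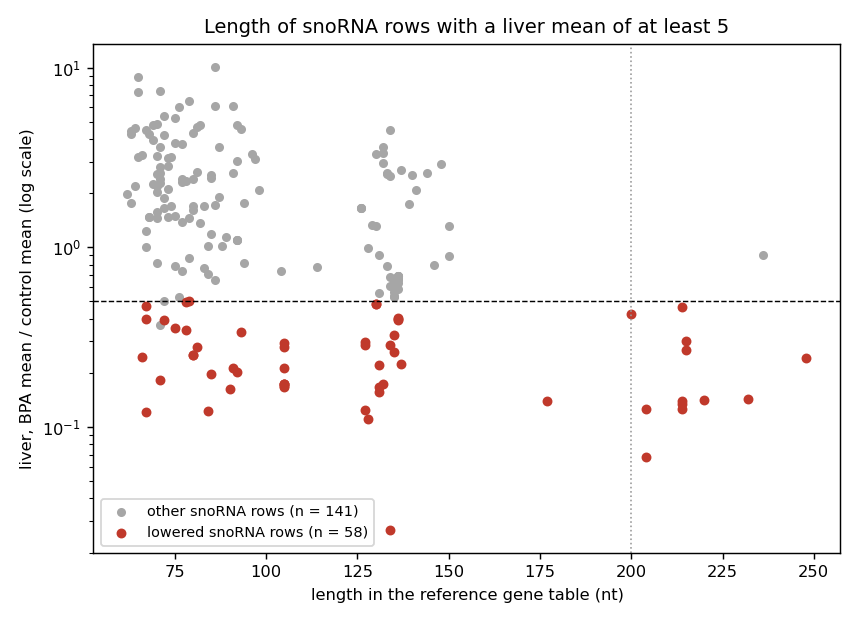
snoRNA length in nt (x axis) against the ratio of BPA to control liver means (y axis, log scale) for the 199 snoRNAs with a length, members and others in separate colours. Of 13 snoRNAs of 200 nt or more, 12 are members, while short snoRNAs occur on both sides of a ratio of 0.5.

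The members' part of all snoRNA reads does not depend on a size factor. It was 48.1%, 37.7%, 30.4% and 44.9% in the control livers of sheep 902, 908, 924 and 928. It was 4.60%, 3.78%, 5.76% and 8.33% in the BPA livers of sheep 910, 918, 977 and 984. The means were 40.3% ± 7.87 and 5.62% ± 1.98, and the livers did not overlap. The members were chosen on the scaled values of these livers, so a smaller share in BPA livers largely follows from that choice. In muscle the share was 10.55% to 16.3% in controls and 4.84% to 6.48% in BPA animals, again without overlap. Per 100 miRNA reads, control muscle held 0.587 to 0.692 snoRNA reads and BPA muscle 1.299 to 2.67. On the deposited scale the median member was at 0.660 to 0.781 of its control mean in BPA muscle. The median of the other snoRNAs was there at 0.979 to 1.17. What lies behind the smaller share in BPA muscle was not tested. Of the 65 members, 55, 56, 55 and 53 lay below the lowest control liver in sheep 910, 918, 977 and 984, and of all 212 snoRNAs 70, 77, 75 and 84, in the values that chose the members. The median member was at 0.174, 0.153, 0.180 and 0.300 of its control mean in these livers. The median of the other snoRNAs was at 2.10, 2.03, 1.43 and 1.24.

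Library content moved with treatment in both tissues. All snoRNA reads numbered 3.69 to 8.48 per 100 miRNA reads in control livers and 0.944 to 2.92 in BPA livers. Control livers gave 1.12 to 4.07 member reads per 100 miRNA reads and BPA livers 0.0693 to 0.135, while muscle gave 0.0671 to 0.0975 in controls and 0.0713 to 0.129 in BPA animals. With the size factors of the miRNA table in place of those of the snoRNA table, all 65 members stayed below a ratio of 1, with a median of 0.0449, and the median of all 212 snoRNAs was 0.225. With each library scaled to its total of snoRNA reads, all 65 were again below 1, with a median of 0.161, and that of all snoRNAs was 0.754. Of all 212 snoRNAs, 85.4% were below 1 with the former and 57.1% with the latter, so the members' place below 1 is read against a shift of the whole table. The part of the smaller miRNA totals and the larger snoRNA share of control livers in these differences was not tested.

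**Figure D4:**
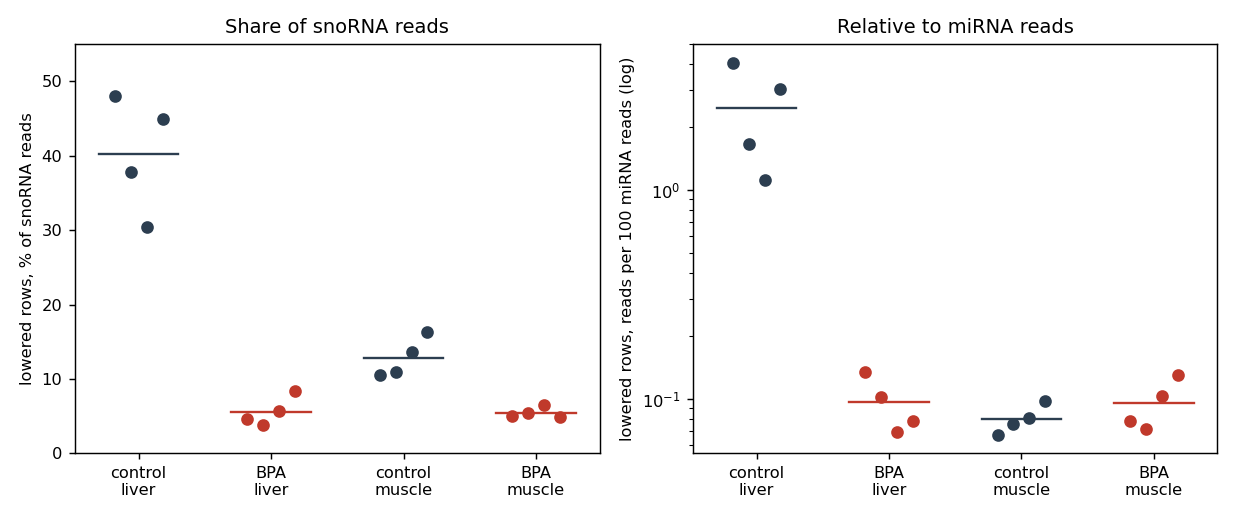
Percentage of all snoRNA reads that came from the 65 members, 1 point per library by tissue and group. Control livers stand at 30.4% to 48.1%, and BPA livers, control muscle and BPA muscle stand at 16.3% or less.

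The marker miRNAs of other cell types overlapped between the liver groups. MIR150 of leukocytes, 1 of 4 on its list, was 199 to 549 in control and 231 to 493 in BPA livers. MIR221, the endothelial marker present of 3 listed, was 345 to 730 and 435 to 703, and the sum of MIR143 and MIR199A, 2 of 4 fibroblast and smooth-muscle markers, was 26709 to 40182 and 27447 to 52968. None of the 3 erythroid markers was in the table. The number in the library codes also differed between the groups. It was higher in the control livers of sheep 908, 924 and 928 than in any BPA liver, and lower in that of sheep 902. In muscle it was lower in every control animal than in every BPA animal, so code and treatment cannot be told apart there. The part of the code in the differences between the groups was not tested. Among livers the code was at most 79 in control liver 902 and BPA livers 977 and 984. Among those 3 livers both BPA animals lay below the control for 57 of 65 members and for 93 of 212 snoRNAs (43.9%). The rule used these same livers, and their only control is that of sheep 902, so these counts are a description.

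At the edge of the rule the change from member to non-member was gradual. Just inside the ratio of 0.5 were LOC114114235 at 0.480, LOC114109211 at 0.494 and LOC114115069 at 0.499. LOC114109211 was read at 15.6, 5, 1.09 and 6.46 in control livers and 4.28, 1.85, 4.33 and 3.42 in BPA livers, and LOC114115069 at 46.8, 26.7, 21.8 and 32.3 and 28.6, 20.4, 12.98 and 1.71. LOC114114235 has the same liver values as LOC114116762. Just outside were LOC114111819 in RBMX at 0.502, LOC114114237 at 0.527 and LOC114114226 at 0.528. LOC114111819 was as well separated as many members, with 148, 199, 158 and 172 in control livers and 79.3, 72.2, 89.4 and 99.3 in BPA livers. LOC114114237 was at 33.8 to 49.5 against 13.9 to 25.7, and LOC114114226, at 4.87 to 11.8 against 0 to 5.77, overlapped.

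In muscle, 32 of the 65 members had a mean of at least 5. Their ratio of BPA to control means had a median of 0.700 and a range from 0.284 to 1.68, and 27 of 32 were below 1. Over the 158 snoRNAs with both tissue means at 5 or more, the median was 0.878 and 89 were below 1. Over the 126 of them that are not members the median was 1.01 and 62 were below 1. The muscle clause of the rule took out 1 row, and with it put back the median over 33 rows was 0.701. The muscle direction depended on scaling. With miRNA size factors the members' median ratio was 1.01 and 16 of 32 were below 1, and with totals of snoRNA reads it was 0.387 and 32 of 32 were below 1. The same counts over all snoRNAs in muscle were not taken under these scalings, so nothing particular to the members is read from them.

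Across the 162 snoRNAs tested in muscle with limma on log2(value + 1), 10 were lower in BPA animals (6.17%) and 43 were higher (26.5%) at a Benjamini-Hochberg adjusted p of 0.05. Among the 32 members tested, 2 were lower and 0 were higher. The unadjusted limma p was under the same limit for 6 of 32 members and for 72 of all 162 snoRNAs. edgeR and DESeq2 on the recovered reads also gave 2 members lower and 0 higher. Of all 162 snoRNAs, edgeR called 14 lower and 45 higher, and DESeq2 called 10 lower and 40 higher. All BPA muscles were below all control muscles for the same number, 2 of 32, beside a background of 8.64% (14 of 162). All were above for 0 of 32, beside 26.5% (43 of 162). Since the rule used the muscle means, nothing is read from the members' counts.

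The 2 called were LOC114109259 and LOC114110700. LOC114109259, in the spans of SNX6, a sorting nexin gene, and LOC132658126, was read at 9.69, 7.27, 18.9 and 10.3 in control muscle and at 5.25, 5.56, 2.56 and 1.06 in BPA muscle. The groups did not overlap (limma log2 difference -1.51 ± 0.41 SE, adjusted p = 0.00282). In liver it had 73.1, 1.67, 0 and 23.7 in controls and 1.79, 0, 8.66 and 3.42 in BPA animals, so that its place among the members rests on sheep 902 and 928. LOC114110700 (134 nt) lies in the ribosomal protein gene RPS2 and was read at 3.23, 7.27, 9.46 and 11.7 in control muscle and 1.75, 2.47, 3.19 and 1.59 in BPA muscle (limma log2 difference -1.37 ± 0.41 SE, adjusted p = 0.00724). In liver it had 18.5, 20, 24 and 31.2 in controls and 7.85, 3.70, 10.1 and 5.14 in BPA animals. Without a filter on low values its adjusted p by limma was 0.0589, and with miRNA size factors, or without control muscle of sheep 908, 924 or 928 in turn, its mean was too low to be tested.

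The members most abundant in muscle were LOC114117130, LOC114115071 and LOC114117125. LOC114117130 was read at 66.2, 54.5, 93.1 and 83.7 in control muscle and 56.0, 56.8, 58.1 and 52.0 in BPA muscle. LOC114115071, in MATR3, a gene of a nuclear matrix protein, had 22.6, 26.7, 31.5 and 35.2 in control muscle and 25.4, 27.8, 17.9 and 13.8 in BPA muscle. Its liver values were 12.7, 15, 19.6 and 21.5 in controls and 6.07, 1.85, 4.33 and 17.1 in BPA animals. LOC114117125 had 29.1, 19.4, 52.1 and 35.2 in control muscle and 25.4, 21.6, 21.7 and 18.1 in BPA muscle. The muscle groups overlapped in all 3.

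Of the other members named for their liver values, those with a muscle mean of at least 5 were tested and did not pass by limma. LOC114117365 was read at 17.8, 19.4, 20.5 and 30.8 in control muscle and 20.1, 28.4, 32.6 and 27.1 in BPA muscle. LOC114118597, the HSPA8 member, was at 11.3, 6.06, 15.8 and 7.34 in controls and 6.12, 3.70, 5.75 and 4.78 in BPA animals, with a small overlap. LOC114117131 was at 9.69, 13.3, 25.2 and 14.7 and at 7, 12.3, 17.3 and 4.25. LOC114116762 in TPT1 was at 8.48 to 25 in controls and 8.74 to 13 in BPA animals, and LOC114115069 in RACK1 at 3.23 to 11 and 9.03 to 16. LOC114115069 was called higher with miRNA size factors (limma adjusted p = 0.0119) and without control muscle of sheep 924 (limma adjusted p = 0.0362). Without control muscle of sheep 908, LOC114118597 (limma adjusted p = 0.0432) and LOC114117125 (limma adjusted p = 0.0278) were called lower. LOC114113367 in RCC1 had at most 3.64 in any muscle, LOC114117077 at most 4.85, LOC114108878 at most 5.87 and LOC114115466 at most 9.69.

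A pair of members had more reads in BPA muscle while staying under the muscle mean of 5 that the rule needs to leave a row out, and they were chosen for mention after their values were seen. LOC114110520, a 66 nt snoRNA in C23H18orf32, was read at 88.7, 82.5, 43.6 and 73.2 in control livers and at 18.6, 23.1, 12.98 and 15.4 in BPA livers. In muscle it was at 1.62, 1.21, 1.58 and 1.47 in controls and 4.37, 8.03, 5.75 and 7.97 in BPA animals, from 4 and 42 reads. LOC114109764, in the transcribed pseudogene LOC101116687, was at 8.77, 44.2, 14.2 and 29.1 in control livers and 15.4, 15.7, 5.77 and 8.56 in BPA livers. In muscle it was at 0, 1.21, 1.58 and 1.47 in controls and 2.62, 10.495, 13.4 and 2.66 in BPA animals, from 3 and 46 reads. The row left out by the muscle clause, LOC114118106, had a liver ratio of 0.369 and a muscle ratio of 3.71.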

How the data were processed

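Small RNA libraries of 16 samples (liver and muscle of 8 sheep) were analysed from the authors' deposited tables of 694 snoRNAs, 105 miRNAs and 2973 lncRNAs. The authors deposited normalised counts (a signal). In each library every value is a whole multiple (tolerance 0.001) of the worth of 1 read, which is set by that library's size factor, so reads were recovered. The median ratio to the geometric mean over snoRNAs with reads in all libraries was 1.03204 in every liver and 1.02356 in every muscle, against 0.740 to 1.37 over both tissues together, which puts the size factors as set per tissue. Tools listed in the submitters' processing notes, without roles, are cutadapt 3.2, featureCounts 1.6.1 and STAR 2.6.0c. What build, annotation and normalisation software were used is not given in the sources used here.

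Members and lists were chosen with earlier results of these data known. Muscle was tested with limma 3.58.1 (R 4.3.3, trend) on log2(value + 1), BPA minus control, two-sided, for snoRNAs with a muscle mean of at least 5, with Benjamini-Hochberg adjustment over all of them and a threshold of 0.05. The log scale understates changes of low values. Alternatives were edgeR 4.0.16 (quasi-likelihood), DESeq2 1.42.0, other scalings, filters and pseudocounts, and leaving out each library. The scripts were tested on simulated data. Libraries of a group were compared by chi-square per degree of freedom. The smallest was 18.2 over miRNAs and 1.12 over snoRNAs (control muscle of sheep 902 and 924), where 9 of the 12 muscle pairs were under 2 at low depth. All were kept as samples of separate animals.

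Lengths, hosts and neighbours come from the RefSeq gene table of ARS-UI_Ramb_v3.0, matched by symbol (199 of 212 snoRNAs). It gives no strand, a host is a gene whose span holds the snoRNA, and its build may not be the authors'. Family lists (C/D, H/ACA, SCARNA, RPL13A, GAS5, SNHG1, DLK1-DIO3, SNORD115 and SNORD116) matched no name. Members given by library were the 6 highest in control liver, the 6 smallest ratios with a control mean of at least 20, the 3 nearest the limit on each side, the 3 highest in muscle, those called in muscle and the most abundant of each group with shared counts. The values of 1 such group are not reported here. The snRNA table was not used here.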

Additional observations from a re-analysis of the deposited data

Results flagged for a closer look

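Among 104 groups of 4 libraries, 4 held a library far from the rest, and chance gives about 1 in 20 groups. LOC114109245 was 120.9 in the control liver of sheep 924 (65.3 to 72.1 in the other 3) and 10.3 in the control muscle of sheep 928 (1.58 to 2.42). LOC114114237, just outside the rule, was 49.5 in the control liver of sheep 928 (33.8 to 36.0 in the others). LOC114114226, also just outside, was 1.58 in the control muscle of sheep 924, which is 1 read, and 0 in the other 3. With the other 3 at 0 any read is flagged, so the rate given for chance does not apply there. LOC114110520 differed in direction between tissues, with a ratio of BPA to control means of 4.45 in muscle and 0.243 in liver. Every BPA liver was below every control liver and every BPA muscle above every control muscle. The difference between the tissues was not tested, and control muscle held 4 reads.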

How the results depend on the processing

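With miRNA size factors 163 snoRNAs met the rule (64 of the 65 among them), without the filter on low values 169, and with rows that share counts taken once, an alternative chosen after seeing the data, 43. The members' median liver ratio was then 0.0449 with miRNA size factors. Leaving out a liver gave 58 to 69 snoRNAs and a median of 0.178 to 0.251. Other limits, scaling by snoRNA totals, medians and livers with codes up to 79 gave 49 to 89 snoRNAs, and 51 of the 70 found with those codes are members. In muscle, snoRNAs called lower numbered 18 at a pseudocount of 5, 4 without the filter, 4 at a mean of at least 10 and 2 with miRNA size factors (higher 60), against 10 (higher 43). The median log2 difference of all snoRNAs tested moved from -0.18 to 0.32 with miRNA size factors. Members called lower numbered 1, 0 and 1 without the filter, at a mean of at least 10 and with miRNA size factors, and members called higher 2 without the filter and 1 with miRNA size factors. Leaving out a muscle library gave 46 to 61 called, 41 to 47 higher, 4 to 14 lower (6 without control 928, 5 without BPA 910, 4 without BPA 984), 1 to 4 members lower (4 without control 908 or BPA 977, 1 without control 928) and 0 to 1 higher (1 without control 924). The causes were not tested. No paired analysis was possible because the groups compared share no sheep numbers. The low read counts in BPA livers and control muscle limit the precision of single members.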
